A study of Homo sapiens with 6 samples.

Results

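The interferon-stimulated effector genes are the transcripts that cells make after interferon binds its receptors, and their protein products carry out the antiviral state. A set of 48 such genes was chosen by name. A gene was represented by the probe set whose annotation names only that gene and which had the highest mean log2 intensity over the 6 arrays. Probe sets were found for 47 of the 48 genes, out of 19775 genes named on the array, and IFI30 was not analysed here. A gene was tested if at least 3 arrays exceeded a log2 value of 4, which is an intensity of 16, and 34 of the 47 genes passed this filter.

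The cells were U937T:PLZF-RARa, an engineered derivative of the human monocytic line U937 in which taking tetracycline away switches on PLZF-RARA, the fusion of a zinc finger repressor with the retinoic acid receptor RARA found in a rare acute promyelocytic leukaemia. The induced group holds 3 samples that were washed and grown for 48 h without tetracycline. The uninduced group holds 3 samples of the same cells kept in tetracycline at 0.1 µg/ml and labelled with the same time. All 6 samples were grown in serum with penicillin, streptomycin, puromycin and G418, and each was hybridised to its own Affymetrix array of the HGU133Plus2.0 type. The labels name 1 line and do not say whether it is a clone, and no sample of cells without the fusion gene was analysed here, so the fusion and the removal of tetracycline cannot be told apart. Nor do they say that the replicates were separate cultures, and the p-values then reflect the spread between these samples alone, which may be technical. A change in the share of responding cells and a change in RNA per cell cannot be told apart either.

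Interferons act through surface receptors whose JAK kinases phosphorylate STAT proteins. For type I interferon, the complex ISGF3, which holds IRF9, binds the interferon-stimulated response element (ISRE) in the promoters of effector genes, and interferon gamma acts mainly through a different element, GAS. Interferon regulatory factors can bind ISRE-like sequence without STATs, so some effector genes can be transcribed without interferon. The effectors sense or degrade foreign RNA, modify proteins with the ubiquitin-like ISG15, block viral entry and release, or deplete nucleotides.

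The promoter windows below show an element found in 27 of the 39 genes that have a window, and every window printed holds it. They are shown together because the same sequence core stands before genes that rose, fell, did not pass the test or were not detected. RefSeq windows on GRCh38.p14, from 250 bases before to 50 bases after a gene's start, were found for 39 of the 48 genes. Both strands were searched for the ISRE core, GAAA, any 2 bases and GAAA again (TTTC, any 2 bases and TTTC on the other strand), and for GAS, TTCNNNGAA, which is its own reverse complement. The 180 bases before the start are printed 5′ to 3′ in the gene's direction, with ISRE core matches in capitals; neighbouring matches can overlap, as in ISG15 and BST2.
Higher in induced samples, with 2, 3, 2 and 2 matches:
IFIT1, chr10:89392443-89392622, plus strand: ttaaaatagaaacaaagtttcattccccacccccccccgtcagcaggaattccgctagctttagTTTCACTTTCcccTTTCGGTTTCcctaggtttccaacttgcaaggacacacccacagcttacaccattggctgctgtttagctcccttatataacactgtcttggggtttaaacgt
IFI6, chr1:27672193-27672372, minus strand: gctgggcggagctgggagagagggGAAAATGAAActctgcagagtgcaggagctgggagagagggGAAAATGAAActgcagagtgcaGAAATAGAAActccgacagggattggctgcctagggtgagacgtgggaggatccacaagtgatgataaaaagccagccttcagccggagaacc
ISG15, chr1:1013317-1013496, plus strand: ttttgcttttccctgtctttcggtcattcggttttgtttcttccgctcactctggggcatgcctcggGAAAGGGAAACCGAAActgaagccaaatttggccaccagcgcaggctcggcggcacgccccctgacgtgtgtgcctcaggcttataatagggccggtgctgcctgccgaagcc
OAS3, chr12:112938294-112938473, plus strand: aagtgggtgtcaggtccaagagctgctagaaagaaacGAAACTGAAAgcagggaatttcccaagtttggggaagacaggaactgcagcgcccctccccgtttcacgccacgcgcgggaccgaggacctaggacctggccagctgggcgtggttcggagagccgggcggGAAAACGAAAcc
Lower in induced samples (IFITM3) or not past the test (BST2), with 2 matches each:
IFITM3, chr11:320861-321040, minus strand: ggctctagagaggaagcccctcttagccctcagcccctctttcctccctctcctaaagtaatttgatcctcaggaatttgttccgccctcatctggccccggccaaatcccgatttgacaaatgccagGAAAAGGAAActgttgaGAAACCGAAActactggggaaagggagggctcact
BST2, chr19:17405631-17405810, minus strand: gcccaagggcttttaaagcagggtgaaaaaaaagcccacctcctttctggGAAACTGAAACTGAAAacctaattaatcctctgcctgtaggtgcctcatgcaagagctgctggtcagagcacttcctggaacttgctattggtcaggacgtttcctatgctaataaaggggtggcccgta
Below the filter on all 6 arrays, with 2, 2 and 1 matches:
IFI44L, chr1:78620268-78620447, plus strand: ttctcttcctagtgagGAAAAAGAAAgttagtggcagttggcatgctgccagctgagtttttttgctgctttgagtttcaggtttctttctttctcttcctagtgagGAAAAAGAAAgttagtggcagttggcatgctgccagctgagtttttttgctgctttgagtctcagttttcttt
IFI27, chr14:94110556-94110735, plus strand: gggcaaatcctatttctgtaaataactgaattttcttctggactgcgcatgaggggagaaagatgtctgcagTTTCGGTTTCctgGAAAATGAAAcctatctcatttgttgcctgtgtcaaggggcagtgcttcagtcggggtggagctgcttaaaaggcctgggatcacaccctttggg
EPSTI1, chr13:42992242-42992421, minus strand: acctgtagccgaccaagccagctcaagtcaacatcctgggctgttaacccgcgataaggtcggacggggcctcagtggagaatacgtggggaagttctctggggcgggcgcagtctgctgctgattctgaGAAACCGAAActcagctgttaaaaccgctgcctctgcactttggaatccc

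The ISRE core stood in the window of 27 of the 39 genes (69.2%), against 4.38% of the 27305 genes in the promoter table and 3.98% of the 8159 that were tested on the arrays. By outcome it was found in 13 of 19 genes that were higher in induced samples, 2 of 4 that were lower, 3 of 6 that did not pass the test and 9 of 9 that lay below the filter or were not tested for that reason. GAS was found in 11 of the 39 genes (28.2%), against 9.38% of the genes in the table, and in 4 of the 9 that were not tested. Genes with and without the core were therefore found among those that rose and among those that fell. The match is a description of letters in a window, and the genes were chosen as interferon targets to begin with.

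Of the 34 tested genes, 21 were higher and 7 lower in induced samples (limma, Benjamini-Hochberg adjusted p under 0.05 over 20552 probe sets), which is 61.8% and 20.6%. Of the 9834 tested genes 66.5% passed, 35.8% as higher and 30.7% as lower. After median centring of the arrays the split was 20 higher and 11 lower, and after quantile normalization 19 and 10. Over all tested genes the main counts of 3518 higher and 3019 lower became 3256 and 3627 after median centring. After quantile normalization they were 3444 and 3979. A fitted log2 difference of at least 1, which is 2-fold, was reached by 14 of the higher genes (41.2% of those tested, against 10.8% of all genes) and by 0 of the lower ones, where 8.83% of all genes were lower by that much. For OAS1, 1 of the 14, the measured values bound the rise only at 1.72-fold. The median difference, induced minus uninduced, was 0.87 on the log2 scale over the 34 genes and 0.02 over all tested genes. In 29 of the 34 genes (85.3%) no induced array overlapped an uninduced one, which held for 74.4% of all tested genes. A gene with 0 uninduced arrays above the filter could be tested only if all 3 induced arrays exceeded it, and so had to be brighter there. This holds for IFIT1, IFIT2, IFIT5 and OAS1. HERC6, GBP3 and IFI44, with 1 or 2 such arrays, also needed induced arrays to pass the filter, but did not have to be brighter in them. The counts and the median include these 7 genes. Of the 27 genes above the filter on all uninduced arrays, 15 were higher, 7 lower and 5 did not pass the test. Of these 27 genes 8 rose by at least 2-fold, and the median difference of the 27 was 0.42. The shares over all genes given above are not limited to genes above the filter on all uninduced arrays. They are therefore no like background for the 27, and whether these counts are unusual was not tested. Fold changes are the log2 differences on the linear scale, and "at least" sets the induced mean against the filter where no uninduced array exceeded it.

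**Figure D1:**
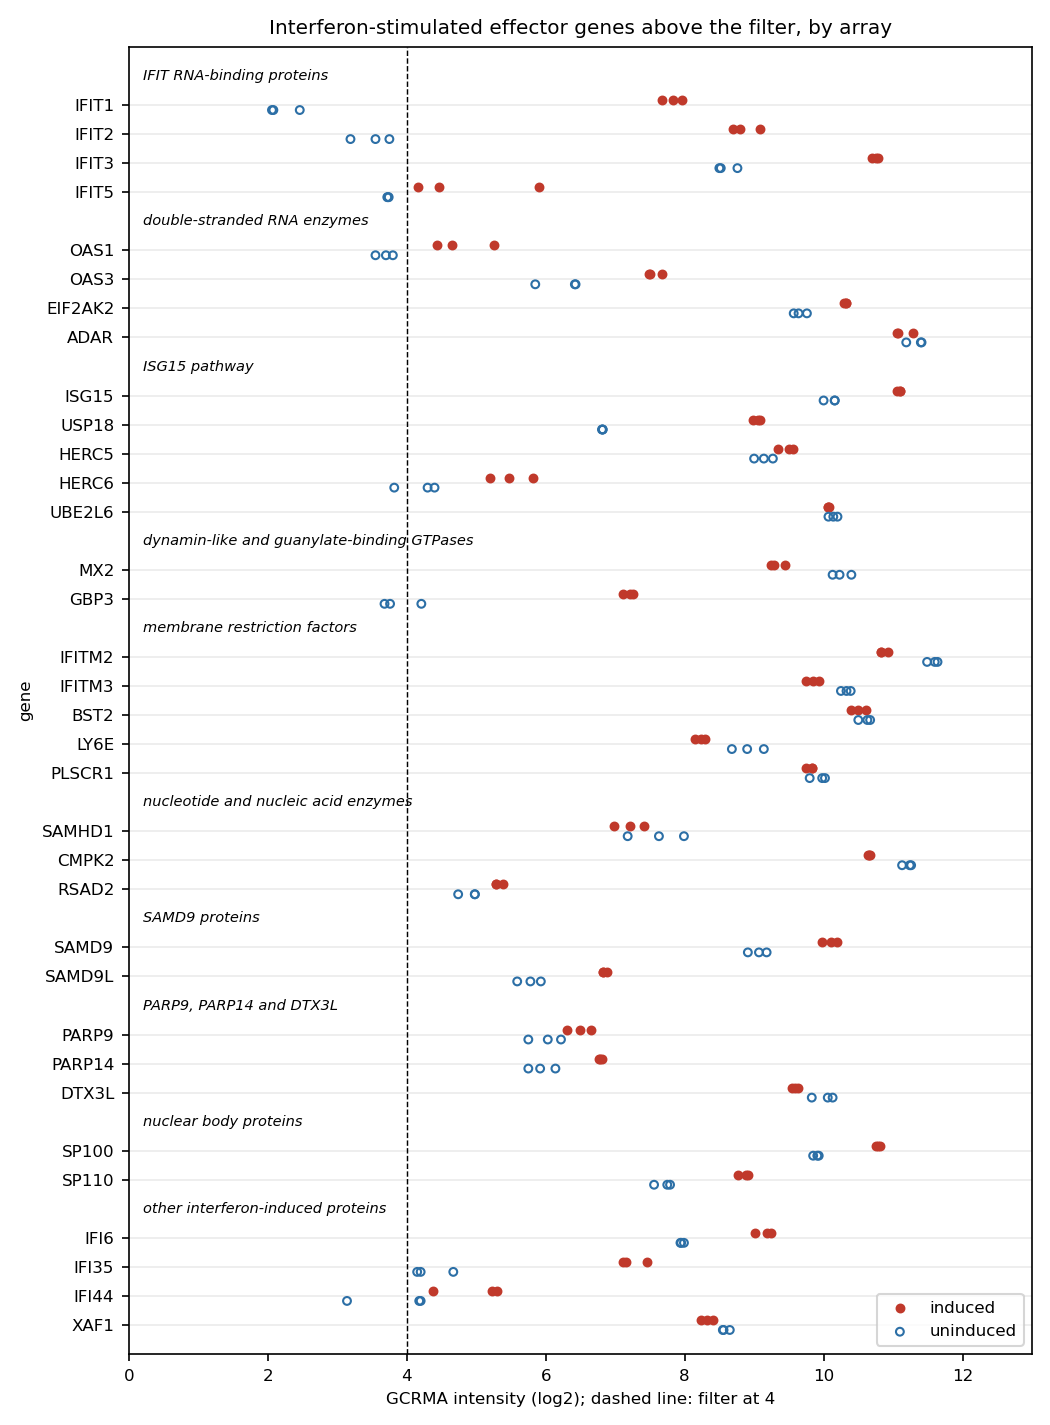
Log2 GCRMA intensity (x axis) of the 34 tested interferon-stimulated genes on each array, grouped by role; filled points are the 3 induced and open points the 3 uninduced arrays, and the dashed line is the filter at 4. The induced points of IFIT1 and IFIT2 lie between 7.67 and 9.08 while all their uninduced points lie left of the filter, and for MX2 and IFITM2 the induced points lie left of the uninduced ones.

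Pairs of arrays within a group had r = 0.9963 to 0.9976 over the tested probe sets, and pairs across the groups r = 0.932 to 0.938. RNA integrity, read from GAPDH as its 3′ control minus its 5′ control on the log2 scale, gave 0.579 ± 0.034 in induced and 0.503 ± 0.025 in uninduced samples (SD, n = 3 each; two-sided exact permutation p = 0.1, the smallest that 3 against 3 allows). The same measure of ACTB was 1.41 ± 0.10 in induced and 1.25 ± 0.083 in uninduced samples (SD, n = 3 each; exact permutation p = 0.2), and the part of RNA integrity in the results was not tested. Of 14 measured myeloid markers 10 were above the filter on some array, among them PTPRC, CD4, LYZ and ELANE, while CD14 and MPO were below it on every array. Of the 10, 4 were higher in induced samples, PTPRC by 3.41-fold the most, and 6 were lower, PRTN3 by 9.90-fold and ELANE by 6.95-fold. The summed intensity of the 14, in which the brightest genes weigh most, was 34200 to 34900 on induced and 52300 to 59000 on uninduced arrays. Of 10 markers of T and NK cells 9 were below the filter on all arrays, the CD3 chains included, and the summed intensity of the 10 was 1330 to 1460 on induced and 236 to 266 on uninduced arrays, NKG7 being the 1 above the filter. Plasmacytoid dendritic cells are known as strong interferon producers. Of their 6 listed genes 4 were below the filter on all arrays, LILRA4 and CLEC4C among them, while TCF4 and NRP1 exceeded it on all 6. TCF4 averaged 9.05 in induced and 8.37 in uninduced samples, 1.6-fold higher (limma, adjusted p = 2.46e-04). NRP1 averaged 5.75 and 5.47 in the same order, and its groups overlapped. The summed intensity of the list's 6 genes was 607 to 640 on induced and 387 to 449 on uninduced arrays. For B and plasma cells the summed intensity of 7 genes was 251 to 260 on induced and 74.8 to 77.7 on uninduced arrays, with MZB1 at least 11.2-fold higher. For erythroid cells the sum of 3 genes was 18.6 to 21.3 on induced and 51.0 to 61.1 on uninduced arrays, with KLF1 at least 2.79-fold lower, and for epithelial cells and fibroblasts that of 10 genes was 311 to 332 on induced and 406 to 429 on uninduced arrays. The part of these marker differences in the results was not tested.

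The IFIT genes encode proteins that bind viral RNA, and 3 of the 4 rose, where 35.8% of all tested genes did. IFIT1 and IFIT2 had the largest differences of the 34 genes. Like IFIT5, they had 0 uninduced arrays above the filter and so were tested only through their induced arrays. IFIT1, which binds RNA lacking the host's cap methylation, stood at log2 intensities of 7.96, 7.67 and 7.83 on the induced arrays, against 2.06, 2.46 and 2.08 on the uninduced arrays. Its groups were 5.62 apart (95% confidence interval 5.31 to 5.93), at least 14.1-fold (limma, adjusted p = 3.94e-07). IFIT2, which works in a complex with IFIT1 and IFIT3, was at 8.70, 8.79 and 9.08 on induced arrays, against 3.75, 3.55 and 3.19 on uninduced arrays. For both genes every uninduced array lay below the filter and every induced array far above it, and IFIT2 was at least 29.0-fold higher (difference 5.37; limma, adjusted p = 1.02e-06). IFIT2 has a further probe set, 217502_at, which stayed below the filter, at 2.80 in induced and 2.79 in uninduced samples.

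IFIT3, a partner that stabilises IFIT1, was already above the filter in uninduced cells. Its log2 intensities were 10.70, 10.76 and 10.78 on induced arrays, against 8.50, 8.76 and 8.52 on uninduced arrays, a 4.43-fold rise (difference 2.15; limma, adjusted p = 2.68e-06). The probe set 204747_at gave 1.74 for the same gene, and both probe sets separated the groups on every array. IFIT5, which binds RNA with a free phosphate end, was at 4.47, 5.91 and 4.16 on induced arrays, against 3.72, 3.73 and 3.74 on uninduced arrays. Its groups did not overlap, yet induced replicate 2 stood well above the other induced arrays and the difference of 1.12 did not pass the test (limma, adjusted p = 0.0515). It passed without that array (0.59, adjusted p = 0.00469) and without induced replicate 3 (1.46, adjusted p = 0.0183), the alternatives giving an adjusted p between 0.00469 and 0.216. The gene also passed as higher with the mean over probe sets, with a replicate block and with trended and robust eBayes. IFIT5 has a further probe set, 203596_s_at, which was below the filter on every array.

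Among the enzymes that respond to double-stranded RNA, both detected oligoadenylate synthetases and the kinase EIF2AK2 rose. OAS3, which makes the second messenger that activates the nuclease RNase L, was at 7.48, 7.67 and 7.5 on induced arrays, against 6.43, 6.42 and 5.85 on uninduced arrays, 2.49-fold higher (limma, adjusted p = 3.83e-04). OAS1, of the same enzyme family, was at 5.25, 4.65 and 4.44 on induced arrays, against 3.70, 3.55 and 3.80 on uninduced arrays, all 3 of them below the filter, and was at least 1.72-fold higher (adjusted p = 0.00264). Each of the 2 genes has a further probe set below the filter on all arrays. That of OAS1, 202869_at, was at 2.14 in both groups, and that of OAS3, 232666_at, at 2.93 in induced and 2.92 in uninduced samples. Neither gene's groups overlapped, and the lowest uninduced OAS3 value came from replicate 3. EIF2AK2 (PKR), which halts translation when it binds double-stranded RNA, averaged 10.31 ± 0.02 in induced and 9.65 ± 0.09 in uninduced samples (SD, n = 3 each), 1.58-fold higher (adjusted p = 1.56e-04), and its tested probe set 204211_x_at gave 0.65 against 0.66. ADAR, which edits adenosine in double-stranded RNA, averaged 11.13 ± 0.13 in induced and 11.34 ± 0.12 in uninduced samples (SD, n = 3 each), and its difference of -0.20 did not pass (limma, adjusted p = 0.106). It passed as lower without induced replicate 2 (-0.28, adjusted p = 0.0446), without uninduced replicate 3 (-0.27, adjusted p = 0.0395), after median centring (-0.28, adjusted p = 0.00827) and after quantile normalization (-0.21, adjusted p = 0.0323), and 0.268 was the highest p of any alternative. ADAR also passed as lower with array weights. OAS2 and OASL stayed below the filter on all arrays, OAS2 at 2.67 ± 0.02 in induced and 2.79 ± 0.19 in uninduced samples and OASL at 3.13 ± 0.21 and 2.91 ± 0.04 in the same order (SD, n = 3 each).

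In the ISG15 pathway 4 of 5 genes rose, where 35.8% of all tested genes did. The largest difference was that of USP18, the protease that takes ISG15 off proteins and also restrains the interferon receptor. USP18 was at log2 intensities of 9.08, 9.06 and 8.99 on induced arrays, against 6.81, 6.82 and 6.82 on uninduced arrays, with very little spread in either group. This was a 4.68-fold rise (difference 2.23; limma, adjusted p = 5.56e-07). ISG15 itself averaged 11.09 ± 0.03 in induced and 10.11 ± 0.09 in uninduced samples (SD, n = 3 each), 1.97-fold higher (adjusted p = 2.37e-05). HERC6, a HERC family ubiquitin ligase, was at 5.20, 5.82 and 5.47 on induced arrays, against 4.40, 4.30 and 3.82 on uninduced arrays, the last of which was below the filter. Its groups did not overlap and differed by 1.32 (limma, adjusted p = 0.00106). HERC6 has a further probe set, 1563659_at, which stayed below the filter, at 2.12 in induced and 2.13 in uninduced samples. HERC5, the main ligase that attaches ISG15 in human cells, averaged 9.47 ± 0.11 in induced and 9.13 ± 0.14 in uninduced samples (SD, n = 3 each), 1.26-fold higher (adjusted p = 0.0172). That call was lost without induced replicate 1 (adjusted p = 0.0548), without induced replicate 2 (0.0586) and with no filter (0.0526), in a range down to 0.00736. UBE2L6, the conjugating enzyme of the pathway, averaged 10.07 ± 0.01 in induced and 10.14 ± 0.07 in uninduced samples, and its difference of -0.06 (95% confidence interval -0.21 to 0.08) did not pass the test (limma, adjusted p = 0.392).

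Of the large interferon-induced GTPases 1 rose, 1 fell and 5 were below the filter on every array. Of all tested genes 35.8% were higher and 30.7% lower. GBP3, a guanylate-binding protein, was at 7.22, 7.11 and 7.25 on induced arrays, against 4.21, 3.76 and 3.68 on uninduced arrays, of which 1 exceeded the filter. Its groups were 3.31 apart (limma, adjusted p = 3.59e-06). MX2, a dynamin-like protein of the nuclear pore that restricts HIV, was at 9.29, 9.44 and 9.25 on induced arrays, against 10.40, 10.23 and 10.13 on uninduced arrays, 1.90-fold lower (difference -0.93; adjusted p = 1.39e-04), the largest fall when each gene is read from its brightest probe set (a dimmer SAMHD1 probe set fell further). MX1, its paralog and a cytoplasmic barrier to influenza virus, did not leave the floor, at 2.47 ± 0.02 in induced and 2.48 ± 0.01 in uninduced samples (SD, n = 3 each). The remaining guanylate-binding genes GBP1, GBP2, GBP4 and GBP5, which interferon gamma is known to induce strongly, lay between 2.99 and 3.81 on every array, and every further probe set of theirs was below the filter as well. GBP genes are close in sequence, and which of them a probe set binds was not tested.

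Of the 5 tested genes grouped here as membrane factors that restrict virus entry or release, a grouping that leaves out IFI6, 0 were higher and 3 were lower, where 35.8% of all tested genes were higher and 30.7% lower. IFITM2, a membrane protein that blocks virus fusion in endosomes, was at 10.83, 10.93 and 10.83 on induced arrays, against 11.64, 11.60 and 11.49 on uninduced arrays, 1.64-fold lower (limma, adjusted p = 1.03e-04). IFITM3, a close relative with the same role, was at 9.74, 9.94 and 9.85 on induced arrays, against 10.33, 10.39 and 10.25 on uninduced arrays, 1.40-fold lower (adjusted p = 0.00125). Both values come from probe sets of the _x_at type, which can bind several transcripts, so the pair cannot be told apart with certainty. IFITM1, which acts mainly at the cell surface, was not tested: it stood at 4.50, 4.65 and 3.95 on induced arrays, against 3.92, 3.82 and 3.05 on uninduced arrays, with 2 arrays above the filter and all induced values above all uninduced ones. A probe set annotated to both IFITM2 and IFITM1 likewise had 2 arrays above the filter, at 4.23 ± 0.30 in induced and 3.65 ± 0.36 in uninduced samples (SD, n = 3 each).

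LY6E, a surface protein that hinders coronavirus entry, was at 8.15, 8.29 and 8.23 on induced arrays, against 8.90, 9.14 and 8.68 on uninduced arrays, 1.61-fold lower (limma, adjusted p = 0.00188), with no overlap. BST2 (tetherin), which holds budding virus at the cell surface, averaged 10.49 ± 0.11 in induced and 10.60 ± 0.09 in uninduced samples (SD, n = 3 each), and its difference of -0.10 did not pass (adjusted p = 0.313). PLSCR1, a phospholipid scramblase, averaged 9.80 ± 0.05 in induced and 9.93 ± 0.11 in uninduced samples (adjusted p = 0.191 in limma), and its other tested probe set gave -0.12 against -0.13. After median centring both passed as lower, BST2 at -0.18 (adjusted p = 0.0355) and PLSCR1 at -0.21 (0.0213), as did PLSCR1 without uninduced replicate 3 (0.0339), with 0.678 for BST2 and 0.443 for PLSCR1 as the highest p of any alternative. Both also passed as lower with array weights, and PLSCR1 did after quantile normalization. RTP4, a chaperone of G protein-coupled receptors, stayed below the filter, at 3.12 ± 0.09 in induced and 3.06 in uninduced samples.

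The enzymes that act on nucleotides and nucleic acids went different ways. CMPK2, a mitochondrial nucleotide kinase, was at 10.67, 10.64 and 10.66 on induced arrays, against 11.26, 11.24 and 11.13 on uninduced arrays, 1.47-fold lower (limma, adjusted p = 2.33e-04). RSAD2 (viperin), which makes a chain-terminating nucleotide from the product of CMPK2, averaged 5.32 ± 0.05 in induced and 4.90 ± 0.14 in uninduced samples (SD, n = 3 each), 1.34-fold higher (adjusted p = 0.00372). The rise of RSAD2 was not called after quantile normalization (0.24, adjusted p = 0.0666, the highest over the alternatives, from 0.00159), and its other probe set was below the filter. SAMHD1, which breaks down deoxynucleotides and so limits retroviruses in myeloid cells, averaged 7.21 ± 0.21 in induced and 7.60 ± 0.41 in uninduced samples (limma, adjusted p = 0.144). Its other tested probe sets passed as lower, 235964_x_at by -0.72 (adjusted p = 0.00819) and 234987_at by -1.39 (adjusted p = 0.00102), which had no induced array above the filter. The brightest SAMHD1 probe set itself passed as lower without uninduced replicate 3 (-0.60, adjusted p = 0.0206), after median centring (-0.47, adjusted p = 0.0472) and after quantile normalization (-0.50, adjusted p = 0.0382), and 0.439 was the highest p under other settings. That probe set also passed as lower with array weights. The gene passed as lower with the mean over its probe sets and without _x_at and _s_at probe sets. The exonuclease ISG20 was below the filter on all arrays, at 2.64 ± 0.02 in induced and 2.63 ± 0.01 in uninduced samples.

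SAMD9 and SAMD9L, paired growth-restricting antiviral proteins mutated in inherited bone marrow failure, rose together. SAMD9 was at 10.19, 9.98 and 10.11 on induced arrays, against 9.07, 9.18 and 8.91 on uninduced arrays, 2.06-fold higher (limma, adjusted p = 7.78e-05). SAMD9L was at 6.83, 6.82 and 6.88 on induced arrays, against 5.78, 5.59 and 5.93 on uninduced arrays, 2.11-fold higher (adjusted p = 7.32e-05). No induced value overlapped an uninduced one, and the second tested probe set of each gene rose as well, by 1.08 for SAMD9 and 1.53 for SAMD9L.

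SP110 and SP100, relatives that sit in nuclear bodies, both rose. SP110 was at 8.91, 8.77 and 8.89 on induced arrays, against 7.75, 7.79 and 7.56 on uninduced arrays, 2.22-fold higher (limma, adjusted p = 2.97e-05), and its 3 tested probe sets rose by 0.92 to 1.46. SP100, a main component of PML bodies, averaged 10.78 ± 0.03 in induced and 9.90 ± 0.04 in uninduced samples (SD, n = 3 each), 1.85-fold higher (adjusted p = 1.98e-05). Of the 4 tested SP100 probe sets 2 rose, while 210985_s_at (0.09; adjusted p = 0.400 in limma) and 210218_s_at (0.25; adjusted p = 0.144) did not pass, so the probe sets of this gene differ.

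PARP14, PARP9 and DTX3L are neighbours that encode ADP-ribosyltransferases and, in DTX3L, the ubiquitin ligase that binds PARP9. PARP14 averaged 6.78 ± 0.02 in induced and 5.94 ± 0.20 in uninduced samples (SD, n = 3 each), 1.80-fold higher (limma, adjusted p = 3.38e-04), and its other probe set, 232610_at, was below the filter. PARP9 was at 6.65, 6.49 and 6.31 on induced arrays, against 5.75, 6.03 and 6.22 on uninduced arrays, 1.40-fold higher (adjusted p = 0.0204), with its groups close to each other. Its other probe set, 227807_at, did not exceed the filter, at 3.90 in induced and 3.80 in uninduced samples. The PARP9 call was lost without induced replicate 1 (adjusted p = 0.0695), induced replicate 2 (0.0565) or uninduced replicate 1 (0.0501), with no filter (0.088), after median centring (0.065) and after quantile normalization (0.143, the highest, in a range from 0.0105). DTX3L, in contrast, was at 9.55, 9.63 and 9.59 on induced arrays, against 10.13, 10.06 and 9.83 on uninduced arrays, 1.33-fold lower (difference -0.41; limma, adjusted p = 0.00613). PARP9 has 2 RefSeq starts among the windows. From 1 of them PARP9 is read away from DTX3L with 37 bases between the starts on GRCh38.p14, and 1 ISRE core, in capitals, lies in the windows of both; the window of the other PARP9 start holds none. It is shown because the 2 genes were called in opposite directions.
PARP9 to DTX3L, chr3:122564301-122564341, plus strand: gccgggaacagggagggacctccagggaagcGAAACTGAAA

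Of the other interferon-induced proteins, IFI35, IFI6 and IFI44 rose and XAF1 fell. IFI35, a leucine zipper protein, was at 7.11, 7.46 and 7.16 on induced arrays, against 4.15, 4.67 and 4.20 on uninduced arrays, 7.48-fold higher (difference 2.90; limma, adjusted p = 9.69e-06). All uninduced values of IFI35 lay just above the filter and all induced ones well above it. IFI6, a small membrane protein with anti-apoptotic activity, was at 9.19, 9.25 and 9.02 on induced arrays, against 7.95, 7.99 and 7.94 on uninduced arrays, 2.28-fold higher (adjusted p = 1.79e-05), with a clear gap between the groups.

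IFI44 was at 5.22, 4.38 and 5.30 on induced arrays, against 3.14, 4.18 and 4.20 on uninduced arrays, the first of these below the filter. Its groups were separated by a narrow gap and differed by 1.13 (limma, adjusted p = 0.0281), and the call was lost without induced replicate 1 (adjusted p = 0.0899), induced replicate 3 (0.0807) or uninduced replicate 1 (0.0534) and with no filter (0.136), in a range down to 0.0116. IFI44 has a further probe set, 214059_at, which stayed below the filter, at 2.65 in both groups. XAF1, a pro-apoptotic antagonist of the caspase inhibitor XIAP, was at 8.32, 8.41 and 8.23 on induced arrays, against 8.56, 8.65 and 8.55 on uninduced arrays, 1.20-fold lower (adjusted p = 0.0147). Its second tested probe set fell by 0.31, and the call was lost without induced replicate 3 (adjusted p = 0.0596) or uninduced replicate 2 (0.0551), in a range down to 0.00256. IFI27 (1.91 in both groups), IFI44L (2.05 in induced and 2.06 in uninduced samples) and EPSTI1 (2.50 and 2.51 in the same order) were below the filter on all arrays.

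**Figure D2:**
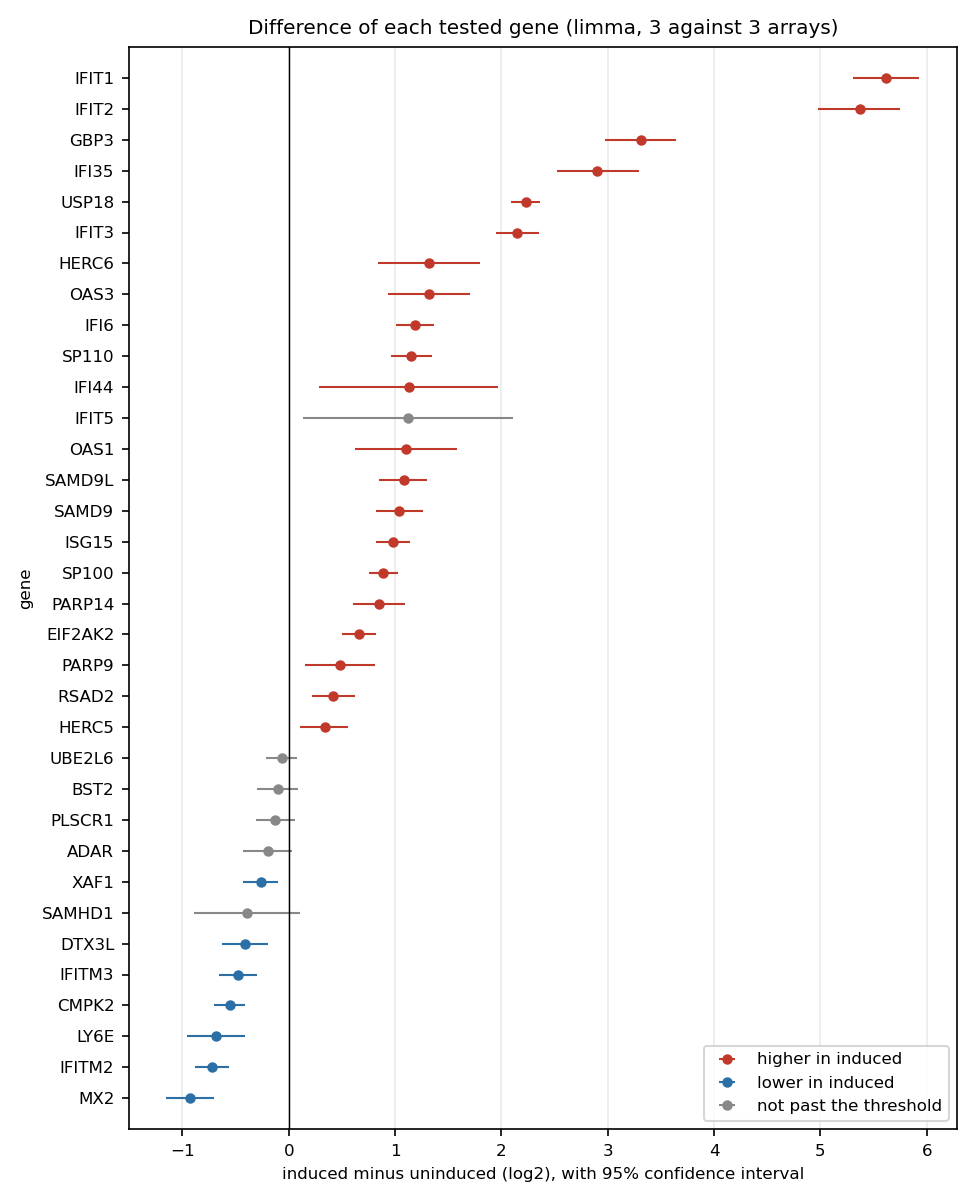
Induced minus uninduced difference on the log2 scale (x axis) with its 95% confidence interval for each of the 34 tested genes, sorted by size; red points passed the test as higher (21), blue points as lower (7) and grey points did not pass (6). IFIT1 and IFIT2 stand apart at 5.62 and 5.37, and no fall reaches -1.

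In all, 12 of the 47 genes stayed below an intensity of 16 on all 6 arrays: OAS2, OASL, MX1, GBP1, GBP2, GBP4, GBP5, RTP4, ISG20, IFI27, IFI44L and EPSTI1. A change in these genes that stays below that level cannot be seen in these data. Of the 91 probe sets of the 47 genes 47 were tested, and 9 genes had more than 1 tested probe set. Over all 20552 tested probe sets 62.5% passed, 34.6% as higher and 27.9% as lower in induced samples. In 6 of the 9 every tested probe set passed in the same direction, and in 0 of them did probe sets pass in both directions.

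**Figure D3:**
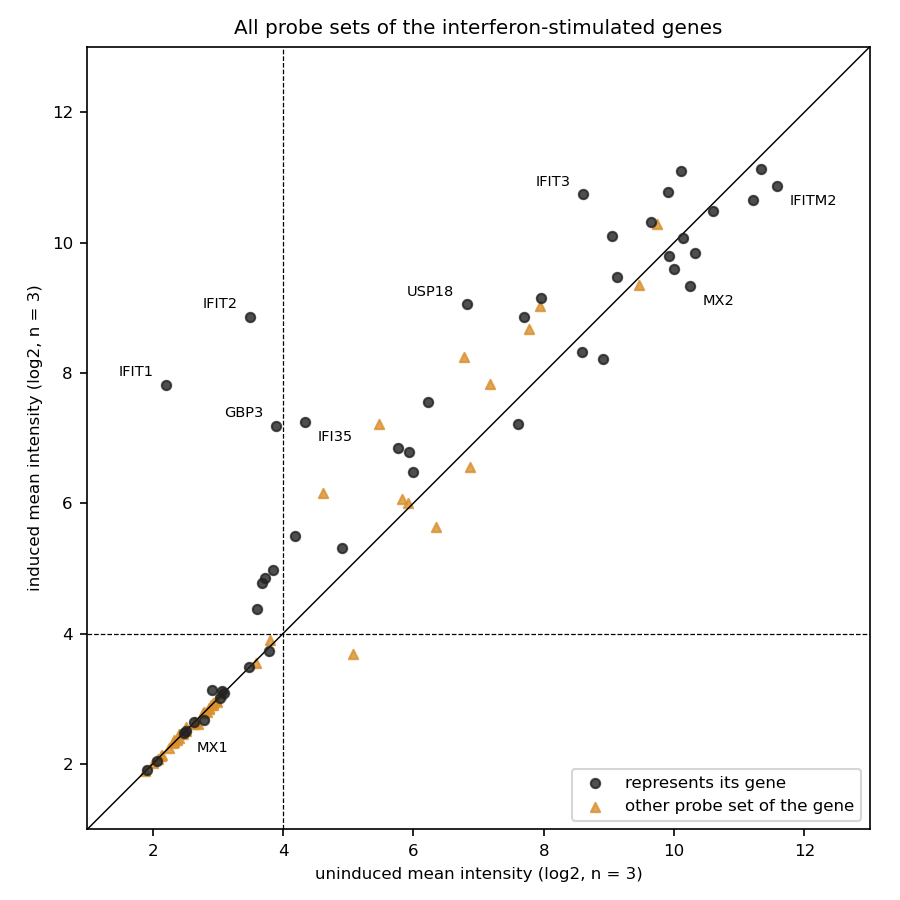
Mean log2 intensity in induced (y axis) against uninduced samples (x axis) for the 91 probe sets of the interferon-stimulated genes, with n = 3 arrays behind each mean; circles represent their gene, triangles are further probe sets, dashed lines mark the filter at 4 and the diagonal marks equal means. IFIT1 and IFIT2 lie far above the diagonal, MX2 and IFITM2 lie below it, and the cluster at the lower left, MX1 among it, holds the probe sets below the filter in both groups.

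Neighbouring genes did not always share an outcome. Of the 48 genes 30 lie within 500 kb of another, in 11 runs. The IFIT run had 3 rises among 4 genes and the pairs SP110 and SP100, HERC6 and HERC5, and SAMD9 and SAMD9L rose together. In the IFITM run IFITM2 and IFITM3 fell together and IFITM1 was not tested. MX2 fell and IFI44 rose, each beside a gene below the filter (MX1 and IFI44L). Of all tested genes 35.8% were higher and 30.7% lower, and whether neighbours share an outcome more often than other genes was not tested. In the run of 5 guanylate-binding genes only GBP3 was above the filter, and in the OAS run OAS1 and OAS3 rose while OAS2 was not detected. CMPK2 fell beside RSAD2, which rose, and DTX3L fell beside PARP9 and PARP14, which rose.

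No transcript of a measured interferon was detected in either group, and IFNA6, IFNA13 and IFNL3 were not analysed here. All 18 measured interferon genes, members of the alpha family, IFNB1, IFNE, IFNK, IFNW1, IFNG, IFNL1 and IFNL2 included, were between 1.99 and 3.69 on every array. IFNB1 averaged 2.35 ± 0.03 in induced and 2.36 ± 0.01 in uninduced samples, and IFNG 2.27 in both (SD of 0.01 each, n = 3 each). IFNL1, a lambda interferon, averaged 3.44 ± 0.32 in induced and 2.87 ± 0.16 in uninduced samples (SD, n = 3 each), without overlap and still below the filter. These levels bound only what the array can detect, and interferon protein was not measured.

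Among 9 tested genes of interferon receptors and JAK-STAT signalling 6 rose (66.7%) and 0 fell, against 35.8% and 30.7% of all tested genes. In this and the next lists IRF7, AIM2, SOCS1, TNFSF10 and LGALS3BP had 0 uninduced arrays above the filter. They were tested only through their induced arrays and count as rises on that condition. IRF9 and APOL1, with 1 uninduced array above the filter each, also needed induced arrays to pass it. IRF9, the DNA-binding part of ISGF3, averaged 6.70 ± 0.25 in induced and 3.99 ± 0.31 in uninduced samples (SD, n = 3 each), of which 1 uninduced array was above the filter, a difference of 2.71 (limma, adjusted p = 2.30e-05). The kinase JAK1 was 1.94-fold higher, the receptor chains IL10RB and IFNGR2 1.66-fold and 1.41-fold higher, and IFNAR1, a chain of the type I receptor, 1.57-fold higher (limma, adjusted p = 0.00294). Its partner IFNAR2 differed by 0.14 (adjusted p = 0.11), from a probe set of the _x_at type, while its 1 tested probe set of neither the _x_at nor the _s_at type was higher by 0.76 in a fit without such probe sets (adjusted p = 3.52e-04, the lowest of a range up to 0.536). STAT2 was not analysed here.

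Of 6 tested interferon regulatory factors 4 rose (66.7%) and 1 fell (16.7%), against 35.8% and 30.7% of all tested genes. The counts were 4 and 2 after median centring and after quantile normalization, where IRF3 passed as lower. Over all tested genes the count lower also went from 3019 to 3627 after median centring and to 3979 after quantile normalization. IRF7, the factor that amplifies type I interferon responses, averaged 7.18 ± 0.16 in induced and 3.67 ± 0.15 in uninduced samples (SD, n = 3 each). It was at least 9.04-fold higher (limma, adjusted p = 1.16e-06). IRF2 was 7.05-fold higher, IRF1, itself induced by interferon gamma, 3.46-fold higher, and IRF5 2.42-fold higher. Over the alternatives the log2 difference ranged from 2.66 to 2.91 for IRF2, from 0.97 to 1.87 for IRF1 and from 0.51 to 1.44 for IRF5. The myeloid factor IRF8 went the other way and was 5.86-fold lower.

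Of 11 tested nucleic acid sensors and adaptors 5 were higher (45.5%) and 1 lower (9.09%), against 35.8% and 30.7% of all tested genes. The counts were 3 and 1 after median centring, where all tested genes gave 3256 higher and 3627 lower. They were 4 and 2 after quantile normalization, where all tested genes gave 3444 and 3979. The DNA-binding sensor IFI16 had the smallest adjusted p in this list and was 13.1-fold higher. RIGI, a cytoplasmic RNA sensor, was 1.59-fold higher (limma, adjusted p = 1.55e-04) and the signalling kinase TBK1 1.22-fold higher (0.011), while the related RNA sensor IFIH1 was 1.32-fold lower (0.00649). IFIH1 was not called with the mean over its probe sets (adjusted p = 0.0823, the highest over the alternatives). AIM2, a DNA sensor of the inflammasome, was at least 1.32-fold higher (adjusted p = 0.0293), a call lost under 9 of 15 alternatives, with a highest adjusted p of 0.127.

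Of 13 tested genes that attenuate the signal 5 were higher (38.5%) and 3 lower (23.1%), against 35.8% and 30.7% of all tested genes. The counts were 5 and 6 after median centring and 5 and 7 after quantile normalization. Over all tested genes the count lower also went from 3019 to 3627 and to 3979 in the same order. SOCS1, a feedback inhibitor of JAK kinases, averaged 5.68 ± 0.46 in induced and 3.30 ± 0.05 in uninduced samples (SD, n = 3 each). It was at least 3.20-fold higher (limma, adjusted p = 7.66e-05). PIAS3, named as an inhibitor of activated STAT, was 4.75-fold higher and the phosphatase PTPN1 1.96-fold higher. The phosphatase PTPN6 (SHP-1) was 3.40-fold lower and the corepressor IRF2BP2 2.04-fold lower.

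In a wider list of 63 other interferon-stimulated genes 47 were tested, of which 18 rose (38.3%) and 15 fell (31.9%), against 35.8% and 30.7% of all tested genes. A fitted rise of at least 2-fold was reached by 27.7% of that list, against 10.8% of all tested genes. A fall of that size was reached by 10.6%, against 8.83% of all tested genes, and the median difference of that list was 0.10. TNFSF10, a death ligand, was at least 15.6-fold higher and LGALS3BP, a secreted glycoprotein, at least 2.67-fold higher, while WARS1, the tryptophanyl-tRNA synthetase that interferon gamma induces, was 3.01-fold lower (limma, adjusted p = 2.88e-06). CXCL9, CXCL10 and CXCL11, chemokines of the interferon gamma response, were among the 10 genes of the list below the filter on all arrays. The wider list shares IFI16, IFIH1, IRF1, IRF7 and IRF9 with the lists above, and whether its shares differ from those of the 34 effector genes was not tested.

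**Figure D4:**
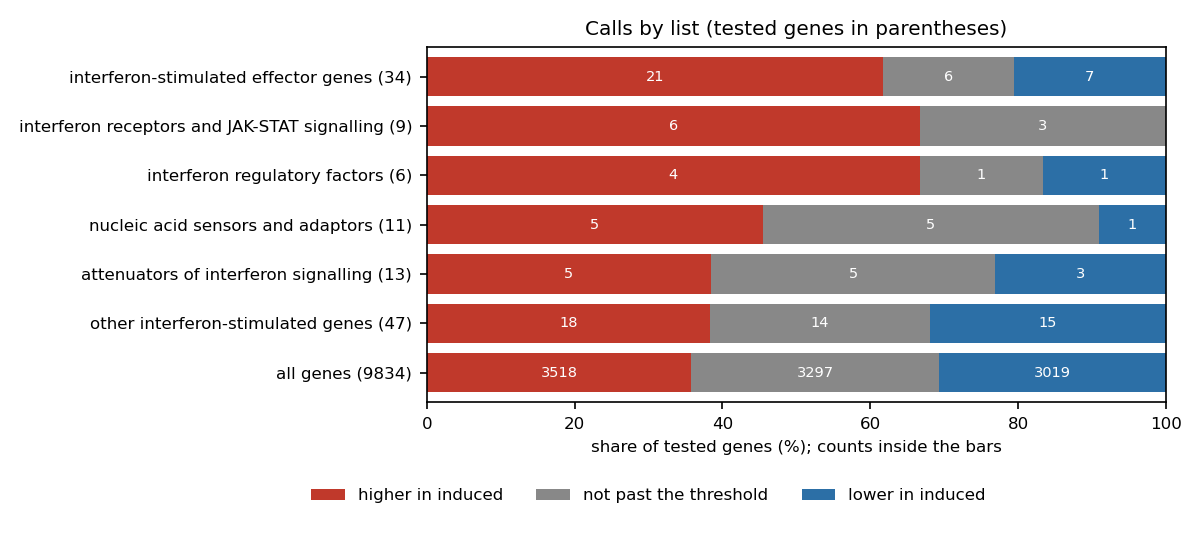
Share of the tested genes of each list (x axis, percent) that were higher in induced samples (red), did not pass the test (grey) or were lower in induced samples (blue), with counts inside the bars and the number tested in parentheses. The effector genes are 21, 6 and 7 of 34, and the bar of all 9834 tested genes at the bottom gives the background.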

How the data were processed

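RNA of 6 samples was measured on Affymetrix arrays, 1 per sample. The deposited intensities, 1 per probe set and array on a linear scale, were made by the authors with GCRMA, per the submitters' processing notes, which corrects background from probe sequence, normalizes and summarises; its version, and whether all arrays were normalized jointly, is not given in the sources used here. Values of dim probe sets can lie close together, as those of MX1 did between 2.46 and 2.49 on all arrays. How far GCRMA alters the differences of dim probe sets was not tested. Array medians were 8.05 to 8.41. Precision is limited by the number of arrays.

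Values under 1 (6 of them) were raised to 1 and log2 was taken. Of 54675 probe sets 62 controls were left out, and 41091 name 1 gene in GEO's platform annotation, 1801 several and 11721 none. The symbols of the 47 effector genes matched RefSeq through their Entrez identifiers. Probe sets above a log2 value of 4 on at least 3 arrays (20552) were fitted in R 4.3.3 by limma 3.58.1 (lmFit, eBayes, two-sided, no covariates) and Benjamini-Hochberg adjustment over all of them at 0.05; the fit was tested on simulated data. Values of genes below the filter come from a fit with no filter. Groups and replicate numbers come from the titles. The effector genes, lists and tests were chosen with earlier results of these data known. Named were all effector genes, with values per array for those called at least 2-fold or lower, up to 5 genes per pathway list with the smallest adjusted p, and STAT2, IRF9, IRF1, IRF7, IFNB1, IFNG, IFNAR1 and IFNAR2; others (IRF3, IFNL1, APOL1, the chemokines, the markers) were named after their values were seen, and an item of the rule is not reported here. Alternatives were no filter, a filter at 6, quantile normalization, median centring, a floor at 16, trended and robust eBayes, array weights, a replicate block, averaging a gene's probe sets, no _x_at or _s_at probe sets and leaving out each array. Promoter sequences are RefSeq's, on GRCh38.p14; those printed were chosen after outcomes were known.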

Additional observations from a re-analysis of the deposited data

How the results depend on the processing

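Of the 34 tested interferon-stimulated genes 24 kept their direction and their side of the threshold under every alternative that tested them, and the other 10 are given with their values in the report: HERC5, RSAD2, PARP9, IFI44 and XAF1 lost their call under some alternative, and IFIT5, ADAR, BST2, PLSCR1 and SAMHD1 gained one. No gene changed direction. The main counts were 21 higher and 7 lower. The count lower was 11 with array weights and 11 after median centring. The median difference of 0.87 was 0.66 with a filter at 6, 0.75 with the mean over probe sets, 0.79 after median centring, 0.76 after quantile normalization and 0.22 with no filter, which adds the genes at the floor; leaving out each array gave 0.74 to 0.93. Leaving out each array gave 18 to 21 higher and 6 to 10 lower; 10 lower came without uninduced replicate 3, the array with the lowest 75th percentile of log2 values (6.93, against 7.12 to 7.19 on the others).

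For the other lists the counts moved by more than 1.5 times as follows. Interferon regulatory factors had 2 lower, against 1, with array weights, a filter at 6, the mean over probe sets, median centring, quantile normalization, a replicate block and trended and robust eBayes, and 1 to 2 when an array was left out, 2 being without uninduced replicate 3. Sensors and adaptors had 0 lower with the mean over probe sets and 2 after quantile normalization, against 1, and 3 higher after median centring, with no filter and without _x_at and _s_at probe sets, against 5. They had 3 to 4 higher when an array was left out, 3 being without induced replicate 3, uninduced replicate 2 or uninduced replicate 3. Attenuators had 6 lower after median centring and 7 after quantile normalization, against 3, and 3 higher without _x_at and _s_at probe sets, against 5. The other interferon-stimulated genes had 7 higher and 9 lower without those probe sets, where fewer genes are tested, against 18 and 15. Except where stated, the cause was not tested. Over all genes, median centring gave 3256 higher and 3627 lower and quantile normalization 3444 and 3979, against 3518 and 3019.

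Deviations of arrays with the same replicate number correlated at -0.173, 0.000461 and 0.18, and those of arrays with different numbers at -0.238 to 0.209. With 3 arrays per group these values cannot show whether the numbers pair the samples, and the main fit used no pairing. Under a replicate block 22 of the effector genes were higher and 7 lower, IFIT5 being the one added (adjusted p = 0.0337 in limma). Signal over background limits the 13 genes that were not tested, for which only levels are given.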
